A study of Mus musculus with 4 samples.

Results

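The interferon regulatory factor (IRF) family was examined in myeloid cells sorted from mouse liver, through the rows of the count table for the 8 genes Irf1, Irf2, Irf3, Irf4, Irf5, Irf7, Irf8 and Irf9. These are 8 of the 55487 genes in the table, chosen by name, and all 8 passed the filter on low counts. IRF proteins bind DNA through a domain with conserved tryptophans and recognise GAAA repeats, as in the interferon-stimulated response element (ISRE). Pattern-recognition receptors activate IRF3, IRF5 and IRF7, which drive type I interferon and inflammatory cytokine genes, while IRF9 joins STAT2 in a complex that carries the type I interferon signal to the nucleus. IRF1 is induced by interferon-gamma, IRF2 can oppose it, and IRF8 and IRF4 guide the development of monocytes, dendritic cells and other blood cells, often with the ETS factor PU.1.

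The study compared LysM-Cre IL10R fl/fl mice (2 libraries) with LysM-Cre IL10R wt/wt mice (2 libraries). Both genotypes carry LysM-Cre, in which the lysozyme 2 locus of monocytes, macrophages and granulocytes drives Cre recombinase, and they differ in whether the interleukin-10 (IL-10) receptor gene is floxed. Cells had been sorted as positive for CD45 and CD11b and negative for CD3 and CD11c, and poly(A) RNA of the whole gate was sequenced. Lower RNA of a gene per cell and fewer cells that make it cannot be told apart in such bulk libraries. The labels give no age, no sex, no tumour status and no statement that the libraries of a genotype came from separate animals, so p-values measure the spread between these samples.

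Total counts were 17750343 and 17154042 in the fl/fl libraries and 22694136 and 26441014 in the wt/wt libraries. Il10ra, taken as the floxed receptor chain, had 69.3 and 14.8 CPM (counts over each TMM-scaled library size) in fl/fl, against 1111 and 993 CPM in wt/wt (log2 fold change -4.64, adjusted p = 0.0193, edgeR). Xist had 4298 counts in fl/fl 2 and 0 in each other library. The sum of 4 Y-linked genes was 1 in fl/fl 2 and 3455 to 6562 in the others. So fl/fl 2 differed from the rest in sex-linked RNA, and the fl/fl libraries did not come from a single animal. Sex cannot be told apart from other differences between fl/fl 1 and fl/fl 2. The macrophage markers Adgre1, Csf1r and Fcgr1 were present in all libraries, while Mertk, of the same list, had 4 counts in fl/fl 2. Of the 5 Kupffer cell markers, Clec4f, Vsig4 and Timd4 had at most 15 counts in any library, Marco at most 21 and Cd5l at most 47. The plasmacytoid dendritic cell marker Siglech had 0 counts in all 4 libraries.

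Interferon signals are known to reach genes through short motifs before their starts, so upstream sequences of 4 members are shown: Irf8 and Irf7, the members with the smallest p-values, and Irf1 and Irf2, the interferon-gamma induced factor and its antagonist. They come from RefSeq promoter windows on GRCm38.p6, which matched all 8 members by symbol, and run 5' to 3' up to the gene start in the annotation. The Irf7 sequence has no capitals because none of the motifs matched. Capitals mark a match to the GAS core TTCNNNGAA (the site of STAT dimers), the ISRE core GAAANNGAAA or the ETS-IRF core GGAANNGAAA (a joint site of PU.1 with IRF4 or IRF8), searched on both strands.
Irf8, chr8:120736108-120736357, plus strand: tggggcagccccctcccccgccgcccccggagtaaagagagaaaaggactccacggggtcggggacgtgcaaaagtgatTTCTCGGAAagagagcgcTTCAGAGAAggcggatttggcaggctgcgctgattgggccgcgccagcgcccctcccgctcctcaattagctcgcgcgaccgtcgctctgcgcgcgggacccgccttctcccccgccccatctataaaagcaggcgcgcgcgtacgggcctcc
Irf7, chr7:141266482-141266674, minus strand: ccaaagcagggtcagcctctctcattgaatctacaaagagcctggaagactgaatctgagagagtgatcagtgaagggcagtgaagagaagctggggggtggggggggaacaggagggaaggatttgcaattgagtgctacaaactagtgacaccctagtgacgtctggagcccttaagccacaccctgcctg
Irf1, chr11:53769764-53770013, plus strand: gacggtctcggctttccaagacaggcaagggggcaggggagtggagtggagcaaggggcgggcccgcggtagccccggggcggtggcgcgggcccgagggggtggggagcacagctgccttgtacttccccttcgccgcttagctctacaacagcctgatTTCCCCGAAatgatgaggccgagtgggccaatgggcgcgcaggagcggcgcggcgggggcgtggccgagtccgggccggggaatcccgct
Irf2, chr8:46739495-46739731, plus strand: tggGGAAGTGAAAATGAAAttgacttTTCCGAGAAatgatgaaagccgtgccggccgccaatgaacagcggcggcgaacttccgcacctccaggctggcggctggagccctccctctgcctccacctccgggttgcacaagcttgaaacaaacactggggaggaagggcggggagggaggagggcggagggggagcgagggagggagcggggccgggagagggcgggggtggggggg

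Within the 250 bases before the RefSeq start, the GAS core occurred in 3 of 8 members: Irf1 (TTCCCCGAA), Irf2 (TTCCGAGAA) and Irf8, which had 2 matches (TTCTCGGAA and TTCAGAGAA). Irf2 alone held an ISRE core (GAAAATGAAA) and an ETS-IRF core (GGAAGTGAAA), and these overlap in the run of capitals near the start of its sequence. Over all 32851 windows, 7.02% held the GAS core, 2.98% the ISRE core and 2.3% the ETS-IRF core. Irf3, Irf4, Irf5, Irf7 and Irf9 held none of these letters in the window. The window of Irf9 lies inside the annotated gene, so the sequence before the annotated Irf9 start was not searched. Irf1, Irf8 and Irf9 have 2 windows each, of which only the most upstream was searched. A match describes letters and is not a measured binding site.

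Per length of exon, the family spanned a wide range of levels. In RPKM, which is CPM divided by kilobases of exon, Irf5 averaged 172 ± 15.4 in fl/fl libraries and 216 ± 13.9 in wt/wt libraries (SD, n = 2 each), and Irf1 averaged 198 ± 11.1 in fl/fl libraries and 165 ± 91.3 in wt/wt libraries. Irf7 followed at 82.9 ± 16.7 RPKM in fl/fl and 127 ± 12.7 RPKM in wt/wt, and Irf8 at 41.8 ± 4.53 RPKM in fl/fl and 68.2 ± 15.4 RPKM in wt/wt (SD, n = 2 each). Irf9, Irf3, Irf2 and Irf4 came below, with Irf4 the lowest in every library at 2.22 and 5.41 RPKM in fl/fl and 4.01 and 5.15 RPKM in wt/wt. The library ranges of neighbours in this order overlapped for Irf5 and Irf1, Irf1 and Irf7, Irf7 and Irf8, and Irf3 and Irf2, so those pairs are not set apart by their ranges. Within libraries, Irf7 stood above Irf8 and Irf3 above Irf2 in all 4, Irf1 above Irf7 in 3, and Irf5 above Irf1 in 1. The ranges did not overlap for Irf8 and Irf9, for Irf9 and Irf3, or for Irf2 and Irf4. With the longest coding transcript as the length, chosen after seeing the data, Irf2 stood above Irf3 in all 4 libraries. The order of Irf3 and Irf2 thus turns on the length used, because the exon union of Irf2 is 7396 bases and its longest coding transcript 2497 bases. The order of the means of Irf5 and Irf1 over the 4 libraries turned too. Irf5 and Irf1 averaged 194 and 182 RPKM by exon union, and 251 and 338 RPKM by longest coding transcript.

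**Figure D1:**
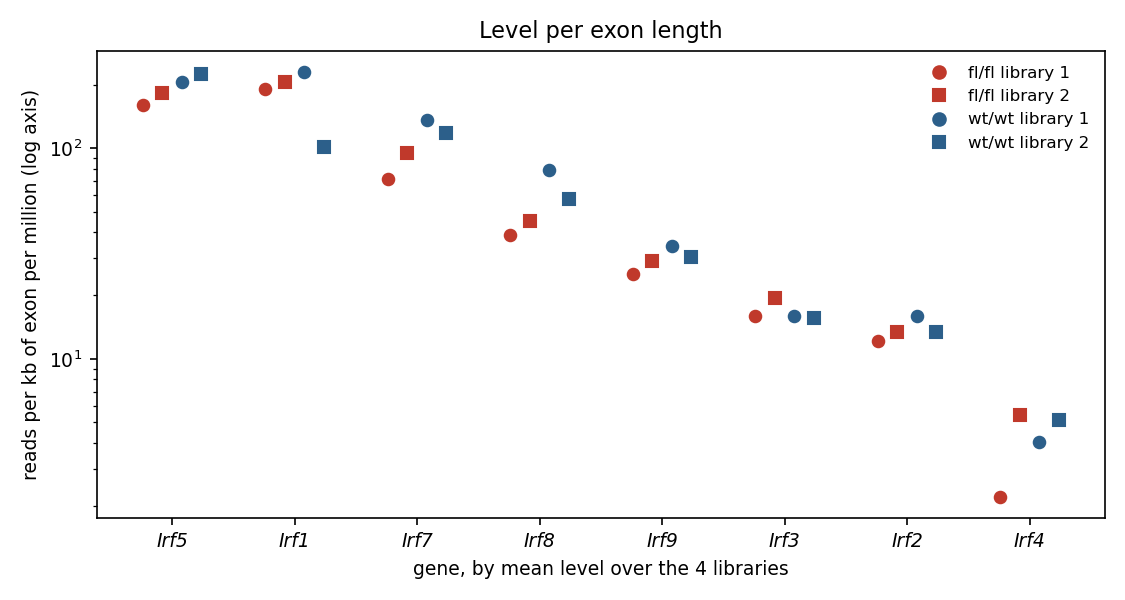
Level of each family gene per kilobase of exon in every library, on a log axis, with fl/fl libraries in red and wt/wt libraries in blue (circles are library 1, squares library 2). Irf5 and Irf1 stand highest, Irf4 lowest at 2.22 to 5.41, and the wt/wt 2 point of Irf1 (101) lies well below its other 3 points.

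The summed RPKM of the 8 genes was 517 and 596 for the fl/fl libraries and 721 and 566 for the wt/wt libraries, and Irf1 and Irf5 made up most of it in every library. The share of Irf1 in that sum was 36.9% and 34.6% for fl/fl, against 31.9% and 17.8% for wt/wt. The share of Irf8 was 7.47% and 7.55% for fl/fl and 11.0% and 10.1% for wt/wt, and that of Irf7 was 13.7% and 15.9% for fl/fl and 18.9% and 20.9% for wt/wt. For both Irf7 and Irf8, the 2 fl/fl shares lay below the 2 wt/wt shares. These shares describe RNA of the family and were not tested.

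The genotypes were compared to ask whether the RNA of these factors differs in myeloid cells whose IL-10 receptor gene is floxed. Irf8 and Irf7 had the lowest levels in fl/fl relative to wt/wt, at 1.63-fold and 1.53-fold lower, and neither passed the test. By the edgeR quasi-likelihood test with Benjamini-Hochberg adjustment over 13496 genes, 0 of the 8 members passed an adjusted p of 0.05, where 5.85% of all tested genes did. At an unadjusted p under 0.05 there were 2 of 8 members, where 22.5% of all tested genes were in either direction. Both members were lower, as were 10.7% of all tested genes at that level. Both fl/fl libraries lay below both wt/wt libraries for 5 members (Irf2, Irf5, Irf7, Irf8 and Irf9), as for 26.3% of all tested genes. For the other 3 the genotypes overlapped, and 54.4% of all tested genes did not overlap in either direction. The median log2 fold change of the 8 members was -0.25, beside 0.02 over all tested genes.

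**Figure D2:**
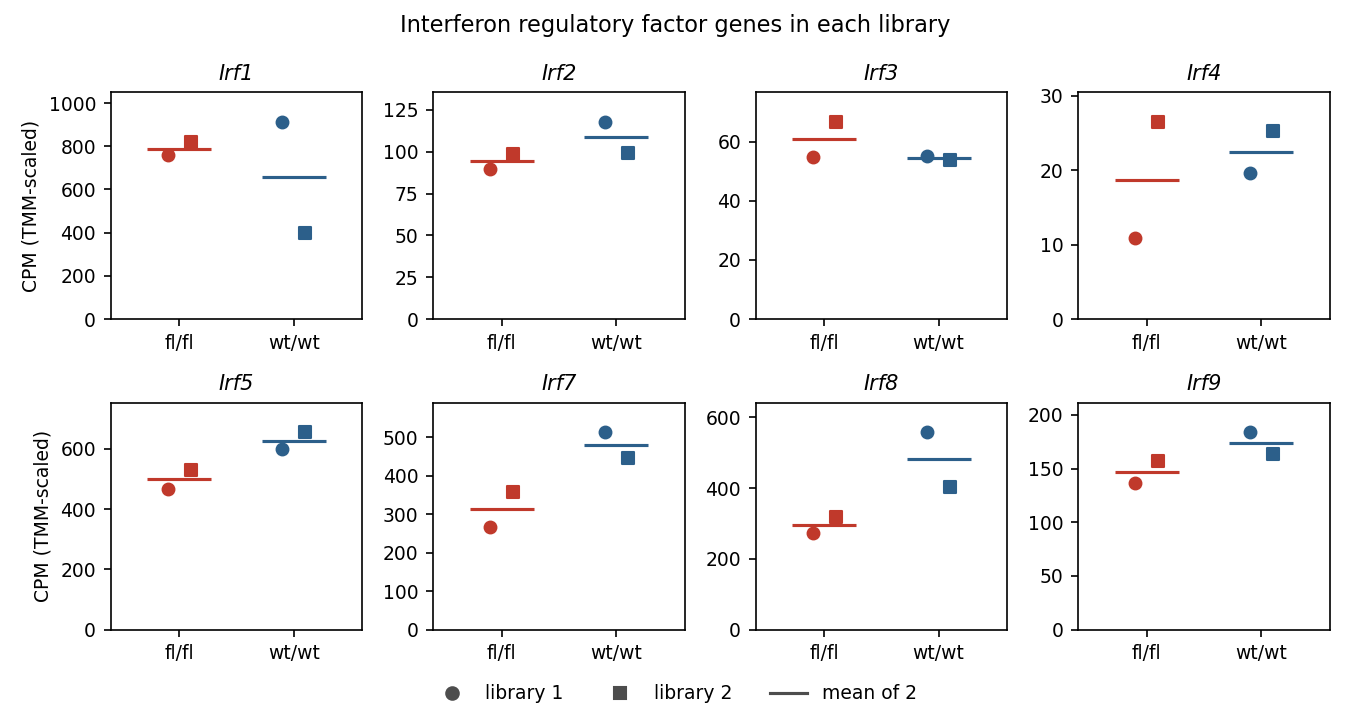
CPM of each of the 8 genes by genotype, with an axis from 0 for each gene (circles are library 1, squares library 2, bars the mean of 2). For Irf7 and Irf8 both fl/fl points lie below both wt/wt points, while Irf1, Irf3 and Irf4 overlap.

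Irf8 (ENSMUSG00000041515; GRCm38 chromosome 8, 120736358 to 120756694, plus strand) encodes the factor that directs progenitors towards monocytes and dendritic cells and away from neutrophils. Its level was 272 CPM (4675 counts) in fl/fl 1 and 317 CPM (5563 counts) in fl/fl 2, against 558 CPM (12433 counts) in wt/wt 1 and 404 CPM (10977 counts) in wt/wt 2. Both fl/fl libraries were lower than both wt/wt libraries, and wt/wt 1 was 1.38 times wt/wt 2. Its log2 fold change of -0.71 ± 0.21 (SE) had an unadjusted 95% interval of -1.20 to -0.21 (adjusted p = 0.102, edgeR). DESeq2 on the same 4 libraries put Irf8 past the threshold (-0.73, adjusted p = 0.0199), as did edgeR without a filter on low counts (-0.72, adjusted p = 0.00413). So did DESeq2 without fl/fl 2, which called 4.55% of genes lower, and without wt/wt 2, which called 2.80% lower. Irf8 kept a negative value in all 17 alternatives and passed in 4 of them, with an adjusted p from 0.00413 to 0.852, so whether it is called depends on the method. Neutrophil and granulocyte precursor markers moved the other way in the same libraries, as given below, and a link between them and Irf8 was not tested.

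Irf4 (ENSMUSG00000021356; chromosome 13, 30749226 to 30766976, plus strand) encodes the factor closest in function to IRF8 and is linked to alternative macrophage activation and to plasma cells. It stood at 10.9 and 26.5 CPM in fl/fl and 19.7 and 25.3 CPM in wt/wt. The fl/fl libraries lay on either side of the wt/wt libraries and differed from each other 2.44-fold, beyond a counting error of 7.31% for the 187 counts of fl/fl 1 and 4.64% for the 465 counts of fl/fl 2. The log2 fold change was -0.26 (95% interval -1.22 to 0.69; adjusted p = 0.770, edgeR). Its direction rests on 1 library: without fl/fl 1 it was 0.20, and without fl/fl 2 it was -1.04 (adjusted p = 0.0475, edgeR, with 0.0475 to 1.000 over the 17 alternatives). In that fit, where 4.52% of genes were called lower, only the wt/wt pair gives the spread.

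Irf7 (ENSMUSG00000025498; chromosome 7, 141262706 to 141266481, minus strand) encodes the factor that amplifies type I interferon production and is itself induced by interferon. It stood at 268 and 358 CPM in fl/fl libraries, against 514 and 446 CPM in wt/wt libraries. The 4 libraries did not overlap between genotypes, and the gap between fl/fl 2 and wt/wt 2 was smaller than the spread within fl/fl. Its log2 fold change was -0.62 ± 0.20 (SE; 95% interval -1.09 to -0.15; adjusted p = 0.126, edgeR). DESeq2 called Irf7 lower (-0.64, adjusted p = 0.0361), edgeR did so without a filter on low counts (-0.63, adjusted p = 0.0175) and without fl/fl 2 (-0.83, adjusted p = 0.0355), and the adjusted p ran from 0.00379 to 0.770 over all 17 alternatives. DESeq2 thus called 2 of 8 members lower, Irf7 and Irf8, where it called 6.18% of all tested genes lower, and edgeR without the filter called the same 2 where 4.72% of genes were lower.

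Irf5 (ENSMUSG00000029771; chromosome 6, 29526625 to 29541871, plus strand) encodes the factor downstream of MyD88 that drives inflammatory cytokine genes in macrophages. It stood at 468 and 531 CPM in fl/fl and 599 and 656 CPM in wt/wt. The genotypes did not overlap, and the log2 fold change of -0.33 (95% interval -0.72 to 0.07) did not pass (adjusted p = 0.306, edgeR). Its value stayed between -0.44 and -0.26 with single libraries left out. Of its exonic length 14.1% is shared with Tnpo3 on the opposite strand, and the strand setting of the counting is not given, so reads there cannot be assigned.

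Irf3 (ENSMUSG00000003184; chromosome 7, 44997648 to 45002848, plus strand) encodes the constitutive factor that TBK1 phosphorylates downstream of MAVS, STING and TRIF. It stood at 54.7 and 66.7 CPM in fl/fl and 55.2 and 53.8 CPM in wt/wt. The fl/fl 1 value lay between the 2 wt/wt values, and the log2 fold change was 0.16 (95% interval -0.26 to 0.57; adjusted p = 0.665, edgeR). That interval leaves out a fall to the size of the Irf7 or Irf8 value, but the difference between members was not tested.

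Irf1 (ENSMUSG00000018899; chromosome 11, 53770014 to 53778374, plus strand) encodes the interferon-gamma induced factor that drives antigen presentation genes and can drive Cd274. It stood at 758 and 820.2 CPM in fl/fl and 914 and 401 CPM in wt/wt. The wt/wt libraries enclosed both fl/fl libraries and differed from each other 2.28-fold, more than any difference between the genotypes' means. The log2 fold change was 0.26 (95% interval -0.58 to 1.11; adjusted p = 0.736, edgeR). It was 0.93 without wt/wt 1 (adjusted p = 0.230, edgeR) and -0.21 without wt/wt 2 (adjusted p = 0.705, edgeR), so its direction depends on which wt/wt library is kept. DESeq2 on the 3 libraries without wt/wt 1 called Irf1 higher (0.96, adjusted p = 0.0476), as it did 1.94% of genes, and the adjusted p of Irf1 otherwise reached up to 0.967.

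Irf2 (ENSMUSG00000031627; chromosome 8, 46739732 to 46847458, plus strand) encodes the factor that competes with IRF1 for its sites. It stood at 89.7 and 98.8 CPM in fl/fl and 118 and 99.2 CPM in wt/wt, with fl/fl 2 and wt/wt 2 nearly level. Its log2 fold change was -0.20 (95% interval -0.60 to 0.19; adjusted p = 0.533, edgeR). Among members, the profile of Irf2 over the 4 libraries was closest to that of Irf9, at a distance of 0.08 between their centred log2 CPM.

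Irf9 (ENSMUSG00000002325; chromosome 14, 55603571 to 55610030, plus strand) encodes the DNA-binding subunit of the complex it forms with STAT2. It stood at 136 and 157 CPM in fl/fl and 184 and 163 CPM in wt/wt, a log2 fold change of -0.24 (95% interval -0.63 to 0.15; adjusted p = 0.450, edgeR). Its partner Stat2 stood at 250.2 and 269 CPM in fl/fl and 477 and 297 CPM in wt/wt (log2 fold change -0.58, adjusted p = 0.220, edgeR). Leaving out wt/wt 1 put Stat2 at -0.24, and leaving out wt/wt 2 put it at -0.88. Neither Irf9 nor Stat2 passed in edgeR, and Stat2 passed only without the filter on low counts among the 17 alternatives (adjusted p = 0.0334, edgeR).

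**Figure D3:**
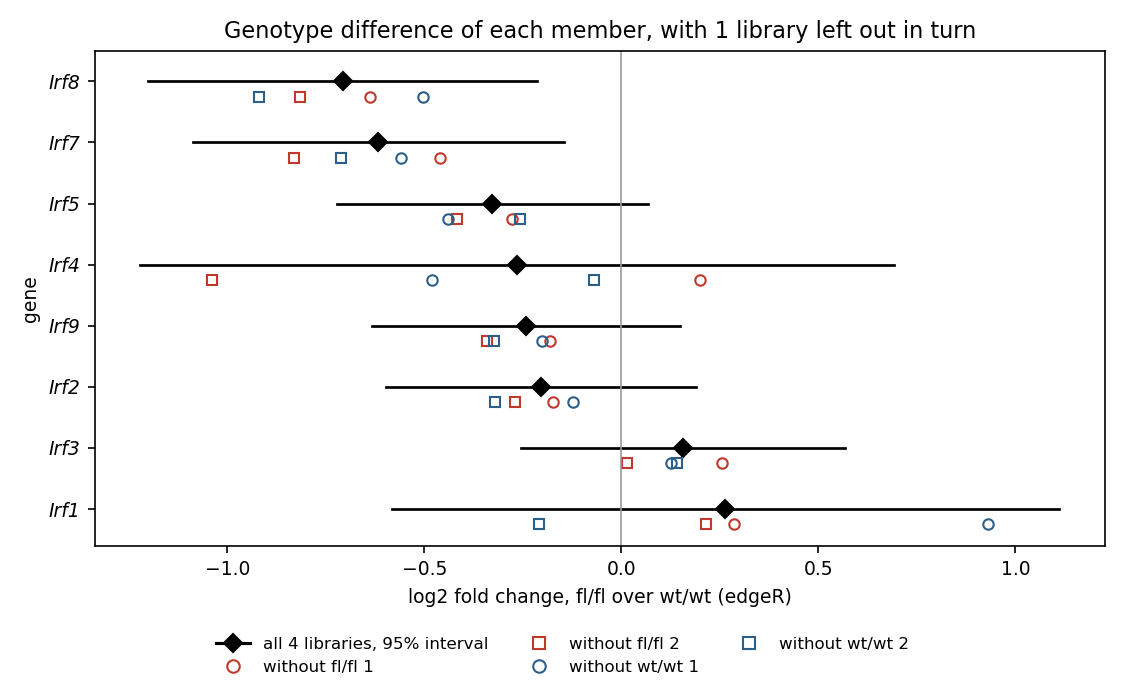
Log2 fold change, fl/fl over wt/wt, of each member with its unadjusted 95% interval (black), and the values with 1 library left out in turn (open symbols). The intervals of Irf8 (-1.20 to -0.21) and Irf7 (-1.09 to -0.15) do not reach 0, and the points of Irf4 and Irf1 fall on both sides of 0.

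Genes known to be driven through the ISRE were lower in fl/fl. Rsad2, the antiviral enzyme viperin, stood at 77.2 and 92.1 CPM in fl/fl and 423 and 326 CPM in wt/wt, and Mx1, an antiviral GTPase, at 85.0 and 110 CPM in fl/fl and 345 and 262 CPM in wt/wt. Of 29 tested genes of this list, 11 fell, 0 rose and 18 did not pass in edgeR, where 3.16% of all tested genes fell, and the list's median log2 fold change was -0.62 beside 0.02 for all tested genes. The 11 ran from -2.15 for Rsad2 to -0.80 for Cmpk2, a nucleotide kinase next to it, and included Ifit3b (-1.68), Mx1 (-1.64) and Oasl1 (-1.32; edgeR adjusted p = 0.00879, 0.0138, 0.0152 and 0.0158 for Rsad2, Ifit3b, Mx1 and Oasl1). Ifit3 and Ifit3b are near-identical neighbours, so reads may be split between them. Oas3, which synthesises the activator of RNase L, stood at a log2 fold change of 0.33 without passing, so the list did not move as one; Cmpk2, Ifit3 and Oas3 were named after their values were seen. With either wt/wt library left out, edgeR called 0 of these 29 genes, as it called 0 of all genes, while the list's median stayed between -0.89 and -0.51 with single libraries left out, and DESeq2 on the same 3 libraries called 6 lower without wt/wt 1 and 11 lower without wt/wt 2.

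The ISRE core stood in the windows of 10 of the 21 genes of this list that have one in the RefSeq table, or 47.6% of genes, beside 2.98% of all windows. Every window of these genes was searched, unlike for the family members. The list was chosen as ISRE-driven, so a high share was built in and says nothing about the fall. Among the genes of this list that fell, the stretches around the core are shown for Rsad2, Ifit3, Ifit3b and Cxcl10, with the core in capitals (TTTCNNTTTC is the same core read on the other strand).
Rsad2, chr12:26456553-26456582, minus strand: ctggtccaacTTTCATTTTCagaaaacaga
Ifit3, chr19:34583363-34583392, plus strand: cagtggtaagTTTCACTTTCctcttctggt
Ifit3b, chr19:34607759-34607788, plus strand: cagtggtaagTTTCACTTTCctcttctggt
Cxcl10, chr5:92349083-92349112, minus strand: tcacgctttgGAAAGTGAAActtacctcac
The Ifit3 and Ifit3b stretches are letter for letter the same. Ifit1, Ifit3 and Ifit3b each held 2 such cores, as did Bst2 and Oas1a, which did not pass. Isg15, which did not pass, held more, and Oas3 and Stat2 held the core without passing. Of the 9 genes that fell and have a window, 5 held the core, and the others held no such letters in this window. The core also stood in 7 of 15 genes with a window that are known to be driven by IRF1 (46.7%), of which edgeR called 0. Among genes known to be driven by IRF8 it stood in 1 of 10 with a window. Whether the core goes with the fall was not tested.

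Upstream of the factors, edgeR called Ifnar1 and Irak2 lower, a count that depended on the method (± gives the SE below). None of the calls named from here on stood in edgeR with either wt/wt library left out, and those of Ifnar1 without fl/fl 1 (adjusted p = 0.0608) and Irf2bpl without fl/fl 2 (adjusted p = 0.0616) did not stand either. Of 10 interferon receptor and JAK-STAT genes, 1 fell and 9 did not pass: Ifnar1, a chain of the type I interferon receptor, stood at 103 and 117 CPM in fl/fl and 218 and 182 CPM in wt/wt (log2 fold change -0.86 ± 0.17, adjusted p = 0.0381, edgeR). Among 21 tested sensors, adaptors and kinases, 1 fell and 20 did not pass: Irak2, a kinase of the Toll-like receptor complex with MyD88, stood at 81.1 and 77.6 CPM in fl/fl and 211 and 171 CPM in wt/wt (log2 fold change -1.27 ± 0.17, adjusted p = 0.0163, edgeR). These counts are 1 of 10 and 1 of 21 where 3.16% of all tested genes fell, so they show nothing about the lists as such. DESeq2 called 1 receptor and JAK-STAT gene lower and 1 higher, and 5 sensors, adaptors and kinases lower and 1 higher. It called 6.18% of all tested genes lower and 5.81% higher. Without the filter, edgeR called 6 of the sensor list lower and 1 higher, where it called 4.72% of genes lower and 4.48% higher. At an unadjusted p under 0.05 in either direction there were 4 of the 10 and 9 of the 21, where 22.5% of all tested genes were. The median log2 fold change of the receptor list was -0.05 (-0.14 without wt/wt 2, -0.0006 without fl/fl 1), and that of the sensor list was -0.10 (-0.43 without fl/fl 2, -0.04 without wt/wt 1). Of 20 interferon ligand genes, 13 had 0 counts in every library and only Ifnb1 passed the filter, at 0.466 and 0.628 CPM in fl/fl and 3.68 and 0.368 CPM in wt/wt, with the higher level in wt/wt 1 alone (adjusted p = 0.368, edgeR).

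Among 10 modulators of IRF proteins and interferon signalling, 2 fell and 8 did not pass, where 3.16% of all tested genes fell. The list as a whole was not tested. Irf2bp2, a corepressor that binds IRF2, stood at 252 and 220.2 CPM in fl/fl and 495 and 425 CPM in wt/wt (log2 fold change -0.96 ± 0.17, adjusted p = 0.0288, edgeR). Its relative Irf2bpl stood at 59.0 and 53.4 CPM in fl/fl and 120.3 and 90.0 CPM in wt/wt (log2 fold change -0.90 ± 0.19, adjusted p = 0.0449, edgeR). The genotypes did not overlap for either gene, as for 54.4% of all tested genes. Irf2 itself did not pass, and its fl/fl 2 and wt/wt 2 values were nearly level (98.8 and 99.2 CPM). The difference between Irf2 and these genes was not tested.

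Of 11 DNA-binding partners of IRF4 and IRF8, 0 were called by edgeR, and the median log2 fold change was 0.00 (-0.15 without fl/fl 2). An unadjusted p under 0.05 was reached by 4, beside 22.5% of all tested genes. Spi1, the gene of PU.1, stood at 813 and 739 CPM in fl/fl and 561 and 599.8 CPM in wt/wt (log2 fold change 0.42, adjusted p = 0.190, edgeR), above wt/wt in both fl/fl libraries. Batf3, which works with IRF8 in dendritic cells, stood at 20.1 and 57.8 CPM in fl/fl and 35.5 and 39.6 CPM in wt/wt (adjusted p = 0.964, edgeR), and like Irf4 it was low in fl/fl 1 and high in fl/fl 2. Without fl/fl 2, Batf3 was at -0.89 (adjusted p = 0.0434, edgeR). Etv6 and Jun, with the smallest p-values of this list, had log2 fold changes of -0.55 and -0.53 without passing.

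Among genes known to be driven by single members, edgeR called Nf1 and Prdm1 lower. With 3.16% of all tested genes lower, 1 call in 10 or in 7 genes shows nothing about those lists as such. Of 21 tested genes known to be driven by IRF1, 0 were called by edgeR, and the median of -0.28 was 0.29 without wt/wt 1. At an unadjusted p under 0.05 there were 2, beside 22.5% of all tested genes. Casp1 and Ciita, with the smallest p-values there, had log2 fold changes of 0.50 and -0.92, and Cd274, the gene of PD-L1, stood at 33.4 and 45.8 CPM in fl/fl and 71.8 and 44.5 CPM in wt/wt with overlapping genotypes. Of 10 tested genes known to be driven by IRF8, Nf1, a negative regulator of RAS, fell (16.3 and 14.7 CPM in fl/fl, 40.9 and 32.3 CPM in wt/wt; log2 fold change -1.24, adjusted p = 0.0249, edgeR) and 9 did not pass, among them Klf4, a factor of monocyte development (-0.32, adjusted p = 0.382, edgeR). Of 7 genes linked to IRF4, Prdm1, which encodes the repressor Blimp-1, fell (30.3 and 26.8 CPM in fl/fl, 89.3 and 61.4 CPM in wt/wt; log2 fold change -1.40, adjusted p = 0.0220, edgeR) and 6 did not pass.

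**Figure D4:**
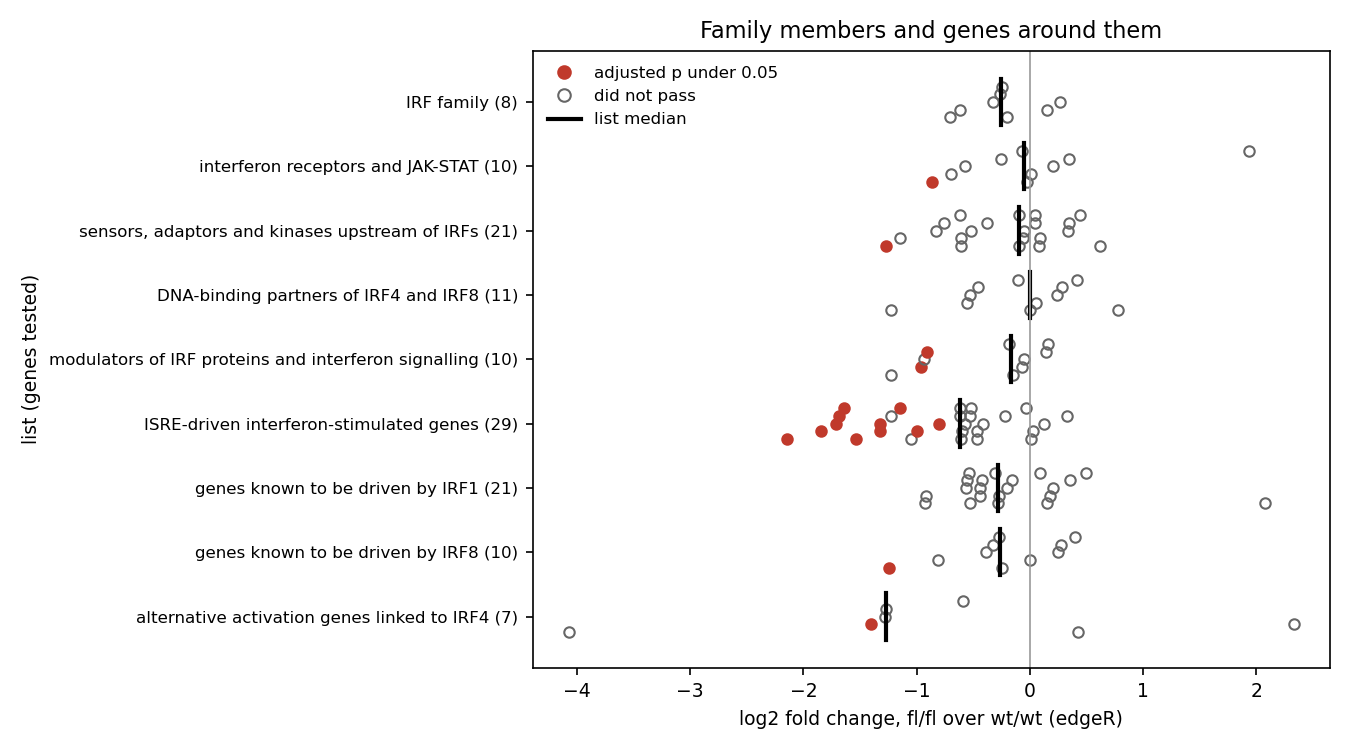
Log2 fold change, fl/fl over wt/wt, of the 8 family genes and of each list of related genes other than the interferon ligands (points are genes, filled where the adjusted p is under 0.05, bars are medians, brackets give the number tested). Filled points are absent from the family and number 11 of 29 among the ISRE-driven genes.

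Markers of some other cells moved with the genotype. Over all tested genes, edgeR called 2.69% higher and 3.16% lower. Of 9 neutrophil markers 9 rose, with a summed level of 35310 and 15667 CPM in fl/fl and 2617 and 3044 CPM in wt/wt, and of 5 tested granulocyte precursor markers 5 rose, with a summed level of 1406 and 433 CPM in fl/fl and 38.8 and 30.5 CPM in wt/wt. Of 8 macrophage markers 4 fell and 0 rose, with a summed level of 1593 and 1760 CPM in fl/fl and 3407 and 3221 CPM in wt/wt. The summed plasmacytoid dendritic cell list was 184 and 295 CPM in fl/fl and 382 and 340 CPM in wt/wt, nearly all of it from Bst2 and Tcf4, with Siglech at 0. The 6 type 1 dendritic cell markers summed to 549.6 and 621 CPM in fl/fl and 426 and 435 CPM in wt/wt, with Naaa making up most of it and called higher (log2 fold change 0.72), while Xcr1 and Clec9a reached at most 1.18 and 2.68 CPM. The B cell list summed to at most 11.8 CPM in any library. Elsewhere, 1 of 6 classical monocyte markers, 1 of 6 type 1 dendritic cell markers, 2 of 3 tested NK cell markers and 1 of 3 tested eosinophil markers rose, and 2 of 4 tested plasma cell markers, Prdm1 among them, fell. Single calls in lists this short show nothing about the lists as such. The NK cell and plasma cell lists had 2 calls each, and neither was tested as a list. The fl/fl library with more neutrophil RNA, fl/fl 1, had the lowest Irf2, Irf4, Irf5, Irf7, Irf8 and Irf9 of the 4 libraries; the part of these marker levels in the family's values was not tested.

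The genes whose profile over the 4 libraries was most like that of Irf8, by the Euclidean distance of centred log2 CPM among 6739 genes of at least median level, were Myo1c (distance 0.07), Ifi207 (0.07) and Ifi204 (0.07). Those most like Irf7 were Mat2a (0.05), AC163635.1 (0.05) and Slc35e4 (0.06), and those most like Irf5 were Colgalt1 (0.03), Gna12 (0.04) and Gm2a (0.04). None of these 9 genes passed the test between genotypes. With 4 libraries many genes can share a profile, and the distances are a description. Between members, Irf7 and Irf8 lay 0.24 apart, and Irf1 and Irf4 lay farthest apart at 1.55.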

How the data were processed

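The authors deposited raw counts per Ensembl gene for 4 libraries; the submitters' processing notes name GRCm38 and the tools STAR 2.5.0, Trimmomatic 0.33 and FastQC 0.11.5. How reads were counted, with which strand setting and annotation, is not given in the sources used here. GENCODE M21 (GRCm38) gave symbols, positions and exon lengths and held 55227 of 55487 identifiers. Counts were fitted with edgeR 4.0.16 (R 4.3.3): filterByExpr with a minimum count of 10 kept 13496 of 22696 genes with any count, with TMM scaling, the quasi-likelihood test without covariates, a prior count of 0.125 and Benjamini-Hochberg adjustment over all tested genes, two-sided. Fold changes divide fl/fl by wt/wt, and an SE is the size of the log2 fold change divided by the root of F. With 2 libraries against 2, an exact permutation test cannot go below 0.333. The fit was tested on simulated data, with a pass mark only for genes given a log2 fold change of 4. Recovery of changes as small as those of the members is not given here. Named genes were the 8 members, Il10ra, Stat2, Spi1, Batf3, Klf4 and Cd274, up to 4 called members of each list by smallest p (or the 2 with the smallest p), and the 3 nearest profiles of the 3 members with the smallest p; 1 further gene of that rule is not reported here. The members and lists were chosen with earlier results of these data known. Distances used log2 of CPM + 0.5. Alternatives were other scalings, filters and prior count, DESeq2 1.42.0, limma-voom (limma 3.58.1), the replicate number as a block, and each library left out; DESeq2 on 3 libraries and the transcript length were added after seeing the data. Counting errors cover counting alone, as the reads carry no molecular identifiers.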

Additional observations from a re-analysis of the deposited data

How the results depend on the processing

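Members called lower numbered 0 in edgeR and 2 in DESeq2, with no filter on low counts, and in DESeq2 without fl/fl 2; DESeq2 without wt/wt 2 called 1 lower and without wt/wt 1 called 1 higher. With single libraries left out, edgeR called 0 to 2 members lower and 0 higher. The sign of Irf1 reversed without wt/wt 2 (-0.21 in edgeR, -0.24 in DESeq2; 0.93 without wt/wt 1) and that of Irf4 without fl/fl 1 (0.20 and 0.21, with -1.04 without fl/fl 2); the other 6 members kept their sign in all 17 alternatives. Batf3 reversed to -0.13 in limma-voom, -0.13 with the block, -0.89 without fl/fl 2 (-0.89 in DESeq2) and -0.07 without wt/wt 1 (-0.0447 in DESeq2), and reached 0.58 without fl/fl 1. Over the distinct genes of the 9 pathway lists, cell markers not included, 17 were lower and 0 higher in edgeR. The lower count was 35 with no filter, 27 in DESeq2, 7 in DESeq2 without wt/wt 1, and 0 to 25 in edgeR with single libraries left out. The higher count was 1 with library size only, 5 with no filter, 2 in DESeq2, 2 with the block, 0 to 3 in edgeR with single libraries left out, and 1 and 4 in DESeq2 without fl/fl 1 and fl/fl 2. Over all genes, 363 higher and 427 lower became 1017 and 1071 with no filter and 784 and 834 in DESeq2, and 602 higher with the block. With single libraries left out, edgeR called 0 to 811 higher and 0 to 666 lower, and DESeq2 called 730 higher and 671 lower without fl/fl 2, 663 lower without fl/fl 1 and 222 lower without wt/wt 1. The cause of these changes was not tested. By design, a fit without a wt/wt library has only the fl/fl pair for its spread, in edgeR and DESeq2 alike. The replicate numbers share no stated origin, and deviations of same-numbered libraries correlated at 0.02 over 13496 genes; with the replicate block, Irf8 was at -0.69 (adjusted p = 0.105, edgeR) and 0 members passed. Depth was ample for most members, and 2 libraries a genotype limit the comparison.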
